A study of Mus musculus with 9 samples.

Results

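The genes described here are 8 genes of the MHC class I antigen presentation pathway, H2-K1, H2-D1, B2m, Tap1, Tap2, Tapbp, Nlrc5 and Erap1, followed by RNA sequencing in mouse tumour organoids. They were taken as the rows of the deposited count table whose Ensembl ID carries one of these symbols in the GENCODE M21 annotation, and all 8 were found among the 21253 genes of the table. The organoids are called AKP, a name that the labels do not spell out. All 9 samples came from organoids whose Apc, the tumour suppressor that restrains Wnt signalling, is silenced by an shRNA for as long as doxycycline is given. Control samples (n = 3) kept doxycycline and had Apc off. In the other groups doxycycline was withdrawn for 2 days (n = 3) or for 7 days (n = 3), so that Apc returned. Drug withdrawal and Apc restoration always went together and cannot be told apart, and time in culture was not matched to a control of its own. The labels call the replicates technical, so the p-values below measure only the spread between these samples. RNA was poly(A)-selected and the values are bulk measurements, in which fewer cells of a type and less RNA per cell cannot be told apart.

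MHC class I molecules show peptides from inside the cell to CD8+ T cells and natural killer cells. A heavy chain, here H2-K1 or H2-D1, pairs with the light chain B2m (beta-2-microglobulin). The peptides are cut by the proteasome, pumped into the endoplasmic reticulum by the Tap1-Tap2 transporter, trimmed by the aminopeptidase Erap1 and loaded with the help of tapasin, the product of Tapbp. Nlrc5 is the transactivator that binds class I promoters through the RFX, CREB/ATF and NF-Y factors, and interferon-gamma is the best known inducer of the pathway. In the intestinal epithelium class I molecules are made by the absorptive and secretory cells of the lining as well as by immune cells.

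The promoters of B2m, of both heavy chains and of Tap1 are shown because all of these genes were higher at 7 days, though by different amounts, and because they carry the matches described next. Tapbp, which was also higher and holds 2 CCAAT boxes without the other matches, is not shown. In the GRCm38 annotation B2m lies at chr2:122147686-122153083 on the plus strand, Nlrc5 at chr8:94434356-94527272 (plus) and Erap1 at chr13:74639568-74693201 (plus). The other members sit together in the MHC on chromosome 17, with Tapbp at chr17:33915899-33929292 (plus), H2-K1 at chr17:33996017-34000347 (minus), Tap1 at chr17:34187553-34197225 (plus), Tap2 at chr17:34203527-34216321 (plus) and H2-D1 at chr17:35262730-35267499 (plus). The lines below give, 5′ to 3′ on the strand of the gene, the 200 bases before the RefSeq start of B2m (chr2:122147487-122147686), H2-K1 (chr17:34000348-34000547, minus strand) and H2-D1 (chr17:35262894-35263093). For Tap1 they give the 225 bases between its start and that of Psmb9, which runs the other way (chr17:34187331-34187555). The sequences are those of RefSeq on GRCm38.p6, in which the Psmb9 and Tap1 starts are 226 bases apart. Capitals mark matches, on either strand, to the CRE half-site TGACG, the CCAAT box (ATTGG on the other strand), GAAANNGAAA and the kappaB consensus. GAAANNGAAA is a strict form of the interferon-response element, and looser forms are left unmarked.
B2m: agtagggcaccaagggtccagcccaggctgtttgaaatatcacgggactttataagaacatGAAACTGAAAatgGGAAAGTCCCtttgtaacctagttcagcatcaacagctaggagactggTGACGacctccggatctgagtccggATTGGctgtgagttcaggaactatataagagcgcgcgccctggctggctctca
H2-K1: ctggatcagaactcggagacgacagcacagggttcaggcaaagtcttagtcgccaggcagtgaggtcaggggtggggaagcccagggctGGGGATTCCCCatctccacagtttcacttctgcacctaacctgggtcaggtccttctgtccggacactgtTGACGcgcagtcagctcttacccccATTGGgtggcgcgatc
H2-D1: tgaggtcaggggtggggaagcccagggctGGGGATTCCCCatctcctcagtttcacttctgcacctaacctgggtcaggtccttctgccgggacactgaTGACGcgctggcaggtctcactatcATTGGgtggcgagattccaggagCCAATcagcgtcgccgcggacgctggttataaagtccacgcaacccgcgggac
Tap1: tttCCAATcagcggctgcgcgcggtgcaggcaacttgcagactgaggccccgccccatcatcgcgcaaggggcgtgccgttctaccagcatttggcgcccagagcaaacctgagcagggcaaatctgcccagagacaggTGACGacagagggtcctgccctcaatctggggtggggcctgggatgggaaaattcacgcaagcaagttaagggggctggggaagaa

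Promoter windows of 250 bases before the start were at hand for 6 of the members, Tap2 and Nlrc5 not being among them. A CRE half-site was found in 4 of the 6 (H2-K1, H2-D1, B2m and Tap1), against 17.8% of all 32851 promoter windows, and a CCAAT box in 5 of the 6, against 33.8%. A kappaB match was found in 3 (H2-K1, H2-D1 and B2m), against 7.25%. GAAANNGAAA occurred in B2m alone among the 6, against 2.98% of all windows. The kappaB stretches of H2-K1 and H2-D1 match the consensus on both strands. In B2m, H2-K1 and H2-D1 the CRE half-site and the CCAAT box stood in one layout, TGACG followed after 20 bases by ATTGG, beginning 78 bases before the start in B2m, 41 in H2-K1 and 101 in H2-D1. This layout was picked after the matches had been seen, and it occurred in 0.0913% of all windows, in 26 of 27025 genes. Of 17 other class I or class I-like genes in the promoter table, H2-M3 held it. Tap1 had its half-site 86 bases before the start and a CCAAT box at 222 bases, close to the Psmb9 start. Such matches describe these letters only, since no binding was measured.

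Each library held 24143589 to 32277040 counts, and 12535 genes passed the filter on low counts. Levels are given as CPM, the usual count relative to library size, here with library sizes scaled by the TMM factors of edgeR. The silenced gene, Apc, averaged 7.49 ± 1.17 CPM in controls, then 31.6 ± 6.66 CPM after 2 days, then 76.9 ± 13.9 CPM after 7 days (SD, n = 3 each), with no overlap between groups. Against control, edgeR's quasi-likelihood test called 82.3% of the genes tested at 7 days (adjusted p under 0.05 over all genes, 40.5% higher and 41.8% lower) and 23.7% at 2 days (13.1% higher and 10.6% lower). The 7-day libraries had TMM factors of 0.785 to 0.874, against 1.073 to 1.125 in controls. Scaling by library size alone shifted the median log2 fold change of all genes by -0.40 at 7 days against control, and 34.8% of the calls were then higher, against 49.2% with TMM. Epithelial markers were plentiful, 8 of them summing to 9715 to 12790 CPM in controls, then 14370 to 16440 CPM after 2 days, then 26740 to 36440 CPM after 7 days, with none at 0. These sums lean on 2 keratins, Krt8 (mean 3824 CPM in controls, 11860 at 7 days) and Krt19 (2757 and 12220). At 7 days 7 of the 8 were called higher, Cdh1 by 1.16-fold and Krt18 by 1.28-fold, and Cdx2 was not called (log2 fold change -0.059, edgeR adjusted p = 0.465).

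At 7 days 6 of the 7 members that passed the count filter were higher than in controls, 0 were lower, and Erap1 was not called. The median log2 fold change of these 7 was 1.47, against -0.032 for all genes tested. The filter asks for enough counts in 3 samples, so a member that is low in every group, as Nlrc5 is, cannot enter these counts, and a higher call was itself common at 40.5% of all genes. The sizes differed widely among the members, from 15.2-fold for Tap1 to 1.70-fold for H2-K1. At 2 days Tapbp was called higher, at 1.27-fold, and the other 6 were not called, beside 13.1% of all genes higher and 10.6% lower.

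**Figure D1:**
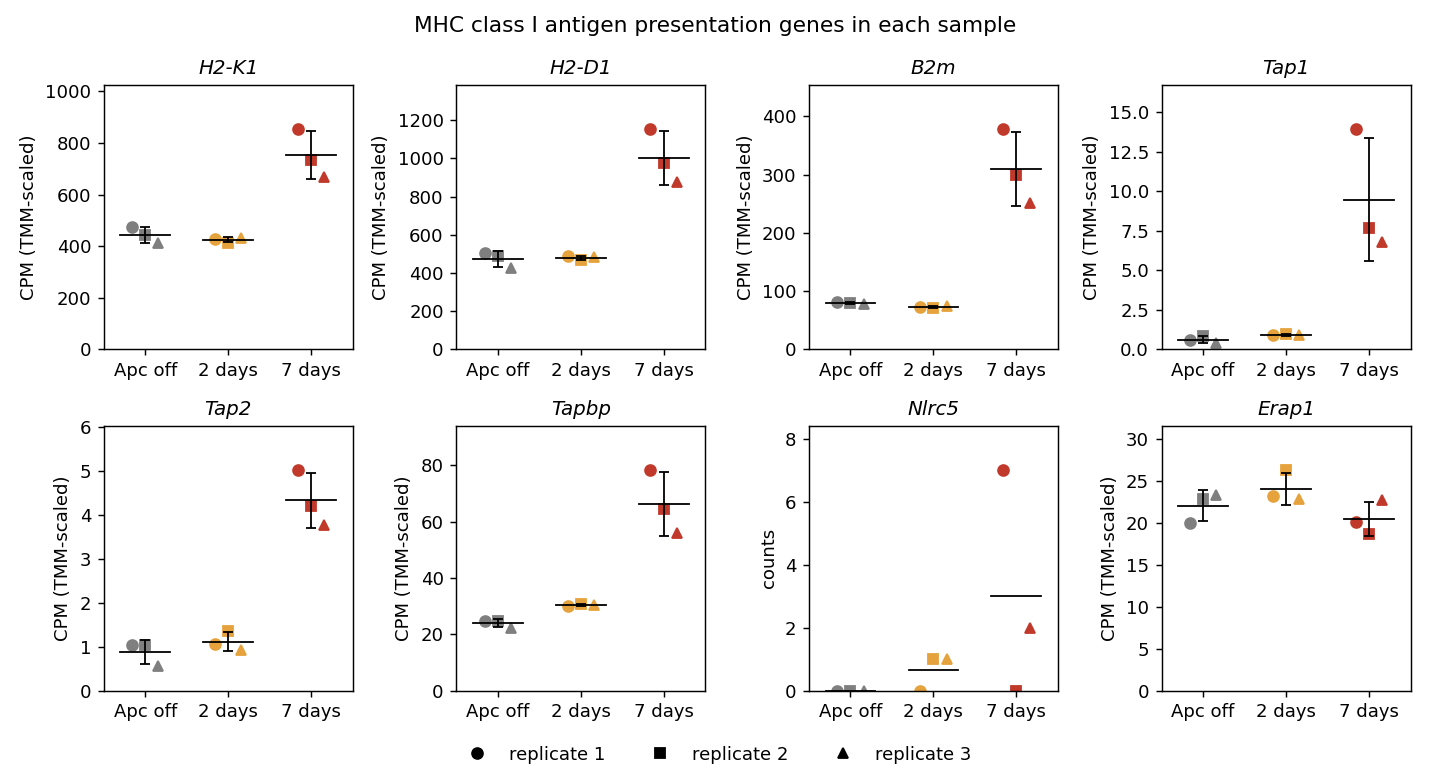
Level of each of the 8 genes in every sample, in CPM with TMM scaling on a linear axis from 0, and for Nlrc5 in counts; symbols mark replicates, horizontal bars the mean of 3 samples and error bars the SD. The 7-day samples lie above all control samples for H2-K1, H2-D1, B2m, Tap1, Tap2 and Tapbp, whereas the 7-day samples of Erap1 overlap the controls and Nlrc5 has at most 7 counts in a sample.

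The heavy and light chains of the class I molecule came first in level. H2-K1 had 473, 444 and 412 CPM in controls, 430, 414 and 432 CPM after 2 days, then 854, 733 and 670 CPM after 7 days. All 7-day samples lay above the rest, while the 2-day values fell within the range of the controls. The log2 fold change of H2-K1 was 0.76 ± 0.09 (SE) at 7 days against control (edgeR adjusted p = 2.23e-06) and -0.059 ± 0.094 at 2 days against control (edgeR adjusted p = 0.703).

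H2-D1, the other classical heavy chain measured, had 505, 490 and 428 CPM in controls, 489, 470 and 483 CPM after 2 days, then 1154, 977 and 878 CPM after 7 days. Again the 7-day samples stood clear of both other groups, and the 2-day samples lay inside the control range. H2-D1 rose 2.11-fold at 7 days, a log2 fold change of 1.08 ± 0.10 (edgeR adjusted p = 1.05e-07), and its 2-day value was 0.018 ± 0.102 (edgeR adjusted p = 0.923). H2-K1 and H2-D1 lie 1262383 bases apart on either side of the class II and class III regions of the MHC.

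B2m had 81.6, 78.9 and 77.5 CPM in controls, 72.9, 70.5 and 74.1 CPM after 2 days, then 378, 300.05 and 252 CPM after 7 days. The 2-day samples were all below the controls, by less than the test could call (log2 fold change -0.13 ± 0.11, edgeR adjusted p = 0.458), and the 7-day samples were far above both. B2m rose 3.91-fold at 7 days against control, with a log2 fold change of 1.97 ± 0.12 (edgeR adjusted p = 3.76e-10).

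Levels of different genes were set side by side per kilobase of annotated exon, a length that counts all exons of a gene whether or not these cells use them. In controls the order was H2-D1 at 184 ± 15.9 CPM per kb (SD, n = 3), H2-K1 at 151 ± 10.5, B2m at 92.2 ± 2.42, Tapbp at 6.59 ± 0.40, Erap1 at 3.03 ± 0.26, Tap2 at 0.233 ± 0.072 and Tap1 at 0.110 ± 0.040 CPM per kb, with Nlrc5 at 0. Tap1 and Tap2 overlapped between samples and the other neighbours did not. At 7 days the order was H2-D1 at 389 ± 54.2 CPM per kb, B2m at 360 ± 74.3, H2-K1 at 256 ± 31.9, Tapbp at 18.3 ± 3.09, Erap1 at 2.82 ± 0.28, Tap1 at 1.73 ± 0.71, Tap2 at 1.15 ± 0.17 and Nlrc5 at 0.015 ± 0.019 CPM per kb. B2m had thus moved between the heavy chains, its samples overlapping those of H2-D1, and Tap1 overlapped Tap2.

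B2m rose more than the heavy chains it pairs with, which can be read within each library without any scaling. The count of B2m over the summed counts of H2-K1 and H2-D1 was 0.0833, 0.0844 and 0.0923 in controls, 0.0794, 0.0798 and 0.0810 after 2 days, then 0.188, 0.176 and 0.163 after 7 days. The 7-day ratios lay above all others and were 2.02-fold those of controls, and the 2-day ratios lay just below the controls. An exact two-sided permutation test gave p = 0.1, the smallest that 3 against 3 samples allow, and 0.117 after adjustment over 27 such tests. H2-D1 over H2-K1 also moved, with 1.07, 1.11 and 1.04 in controls, 1.14, 1.13 and 1.12 after 2 days, then 1.35, 1.33 and 1.31 after 7 days. No 2 groups overlapped, and the exact permutation p was again 0.1 for each pair. Heavy-chain counts are uncertain at the margin, because 6.87% of the 50-base stretches of H2-K1 and 13.9% of those of H2-D1 occur in another gene, against 0% for B2m. The mouse strain and its H2 haplotype were not in the labels, and if they differ from the reference genome, heavy-chain reads may have been lost or counted for another H2 gene, which limits what H2-D1 over H2-K1 and the separate values of other H2 genes mean.

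**Figure D2:**
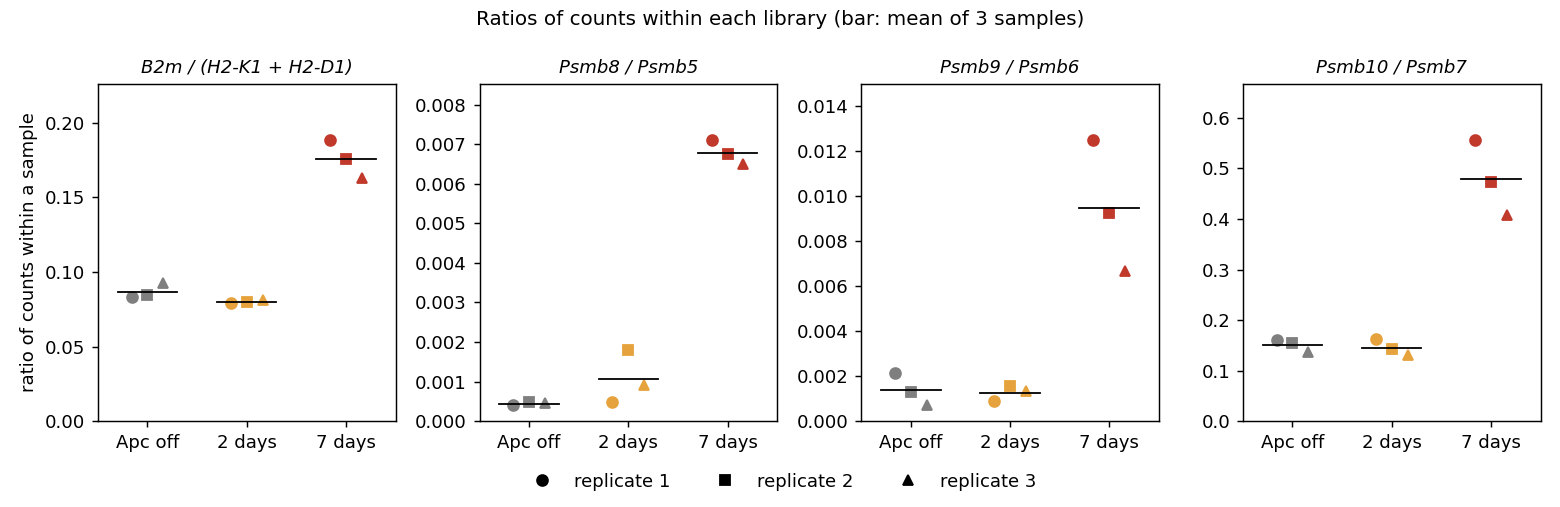
Ratio of counts between gene pairs within each library, on linear axes from 0, for B2m over the summed heavy chains and for each immunoproteasome subunit over the constitutive subunit it replaces; symbols mark replicates and bars the mean of 3 samples. B2m over H2-K1 plus H2-D1 was 2.02-fold and Psmb10 over Psmb7 3.15-fold at 7 days relative to controls, and the Psmb8 and Psmb9 ratios rest on 12 or fewer counts of these genes in each control and 2-day library.

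Of the 7 tested members Tap1 and Tap2 changed most at 7 days against control. Tap1, the first transporter subunit, had 0.579, 0.832 and 0.391 CPM in controls, 0.888, 0.969 and 0.890 CPM after 2 days, then 13.9, 7.66 and 6.78 CPM after 7 days. The 2-day samples lay just above the controls and the 7-day samples far above, with replicate 1 apart from the other 7-day samples. These levels stand on 55 Tap1 counts over the 3 controls, 86 at 2 days and 711 at 7 days. The log2 fold change of Tap1 was 3.92 ± 0.30 at 7 days against control (edgeR adjusted p = 9.27e-09) and 0.57 ± 0.41 at 2 days against control (edgeR adjusted p = 0.359).

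Tap2, the partner subunit, had 1.04, 1.03 and 0.568 CPM in controls, 1.07, 1.35 and 0.921 CPM after 2 days, then 5.02, 4.21 and 3.78 CPM after 7 days. Its 2-day and control samples overlapped, and its 7-day samples stood apart from both. Tap2 rose 4.85-fold at 7 days (log2 fold change 2.28 ± 0.21, edgeR adjusted p = 9.01e-08) and its 2-day value was 0.32 ± 0.26 (edgeR adjusted p = 0.411). The subunits did not keep step, since the count of Tap1 over that of Tap2 was 0.556, 0.806 and 0.688 in controls, 0.829, 0.718 and 0.967 after 2 days, then 2.78, 1.82 and 1.80 after 7 days. The 7-day ratios were 3.09-fold those of controls without overlap (exact permutation p = 0.1, adjusted 0.117). Tap1 shares 3.87% of its exon bases with Psmb9 and Tap2 shares 14.1% with the antisense transcript Gm15821, and reads of such stretches cannot be assigned without strand.

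Tapbp, which encodes the loading chaperone tapasin, had 24.7, 24.8 and 22.3 CPM in controls, 29.9, 30.7 and 30.4 CPM after 2 days, then 78.2, 64.6 and 56.01 CPM after 7 days. The 3 groups did not overlap, as was also so for Tap1, whose larger 2-day log2 fold change (0.57 ± 0.41) was not called. Tapbp was the only tested member called at 2 days. Its log2 fold change was 0.34 ± 0.11 at 2 days against control (edgeR adjusted p = 0.0304) and 1.47 ± 0.11 at 7 days against control (edgeR adjusted p = 4.60e-09). The 2-day call was lost when any single control or 2-day library was left out, with adjusted p up to 0.0858 (log2 fold change 0.30 without control replicate 3), so it holds only with all 6 of those libraries. An antisense gene, Gm19412, covers 24.9% of the exon bases of Tapbp.

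Erap1, the peptide-trimming aminopeptidase, did not follow the others. It had 19.9, 22.9 and 23.4 CPM in controls, 23.2, 26.3 and 22.8 CPM after 2 days, then 20.1, 18.7 and 22.7 CPM after 7 days. Control and 7-day samples overlapped, and the log2 fold change at 7 days against control was -0.11 ± 0.10 (edgeR adjusted p = 0.340). Scaling by library size alone gave -0.51 for Erap1 (edgeR adjusted p = 0.00127), where the median of all genes was -0.43. The exons of Erap1 share 11.5% of their bases with Cast, an antisense neighbour that was itself higher at 7 days (log2 fold change 1.10), and the part of Cast reads in the Erap1 counts was not tested.

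Nlrc5, the transactivator of class I promoters, was almost without reads. Its counts were 0, 0 and 0 in controls, 0, 1 and 1 after 2 days, then 7, 0 and 2 after 7 days, 11 in all. Replicate 1 gave 7 of the 9 counts at 7 days, and another 7-day sample had none. Relative to a floor of 3 counts over the control group Nlrc5 was at least 3.46-fold higher at 7 days, taking its 9 counts as exact, and the exact 95% lower limit of the ratio was 2.28. Both rest on replicate 1, without which the 7-day samples held 2 counts. Relative to 2 days the rate ratio was 5.50 with a 95% interval of 1.14 to 52.3, which covers counting error only. It was below the count filter. With no filter the adjusted p of edgeR was 0.00618 at 7 days against control and 0.0784 at 7 days against 2 days, over 18285 genes.

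**Figure D3:**
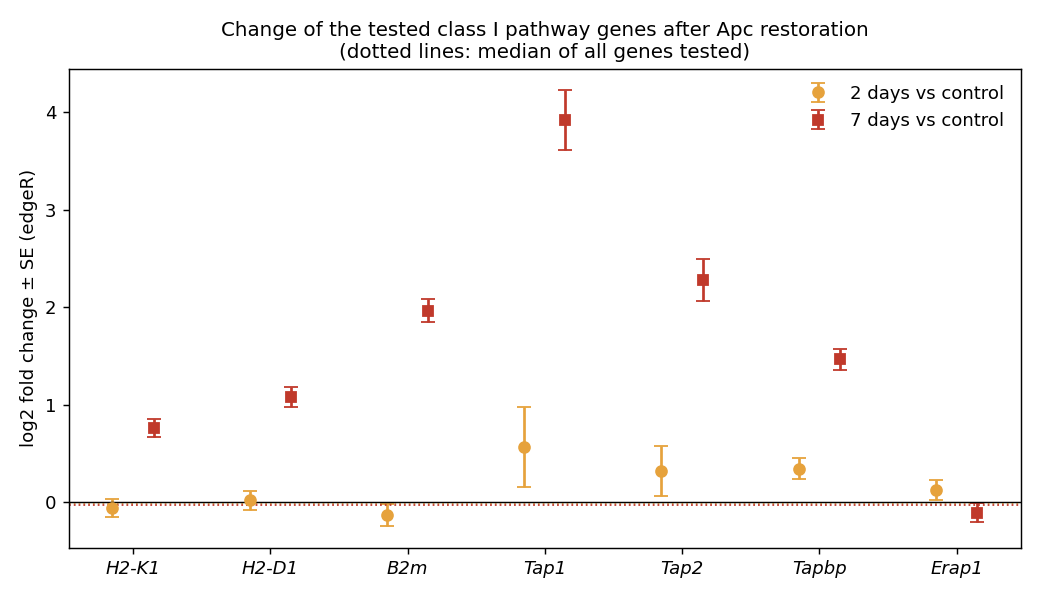
Log2 fold change against control at 2 days and at 7 days for the 7 tested genes, with the SE from edgeR as error bars and dotted lines at the median of all genes tested. The 2-day values lie between -0.13 and 0.57, and the 7-day values reach 3.92 for Tap1 while Erap1 stays at -0.11.

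In order of their 7-day log2 fold change the members ran Tap1, Tap2, B2m, Tapbp, H2-D1, H2-K1 and Erap1. The ranges of 1 SE around Tap2 and B2m overlapped and those of the other neighbours did not. The step between 2 and 7 days was measured directly in the same fit, in which edgeR called 79.1% of all genes, 39.2% higher and 39.9% lower. In that comparison 6 of the 7 tested members were higher at 7 days and 1, Erap1, was lower. The log2 fold changes at 7 days against 2 days were 3.35 ± 0.28 for Tap1, 2.10 ± 0.12 for B2m, 1.96 ± 0.20 for Tap2, 1.12 ± 0.11 for Tapbp, 1.06 ± 0.10 for H2-D1 and 0.82 ± 0.09 for H2-K1, with edgeR adjusted p of 1.15e-06 or less. For Erap1 it was -0.23 ± 0.10 (edgeR adjusted p = 0.0466). That call was lost in 8 of 18 other settings, among them leaving out control replicate 2, 2-day replicate 1 or 2, or 7-day replicate 1 or 2, with a log2 fold change of -0.16 and an adjusted p of 0.209 without 7-day replicate 2.

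The 7-day libraries also differed among themselves in one order. Of the 7 tested members 6 were highest in replicate 1 and lowest in replicate 3, and Erap1 was highest in replicate 3. The TMM factors of these libraries were 0.785 for replicate 1, 0.825 for replicate 2 and 0.874 for replicate 3. Among controls replicate 3 was lowest for 6 of the 7. The part of library composition in these differences was not tested. The 6 genes that rose at 7 days against control did so under each of the 18 other settings in which they were tested, single libraries left out among them, from 0.36 to 0.84 (log2) for H2-K1 up to 3.51 to 4.27 for Tap1.

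**Figure D4:**
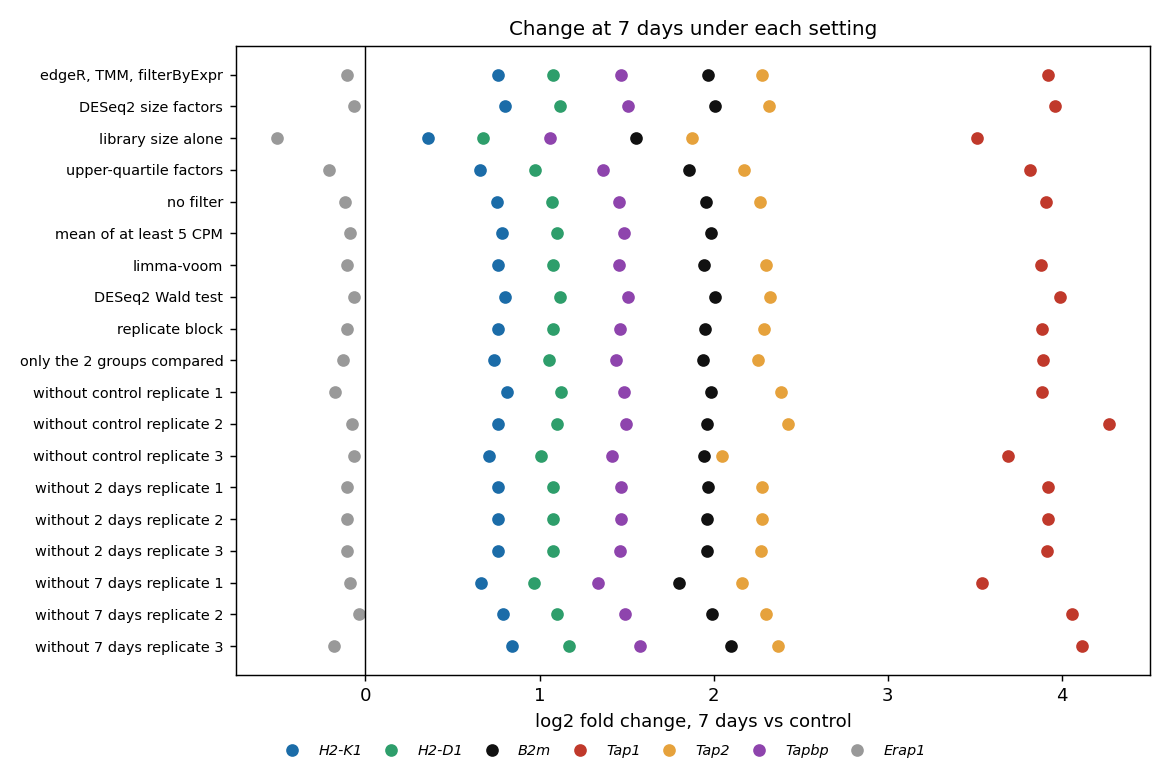
Log2 fold change at 7 days against control for the 7 tested genes, down the page in each setting of the analysis. Points of one colour belong to one gene and keep their order in every setting run, Tap1 and Tap2 having no value under the stricter filter; scaling by library size alone moves all of them to the left, H2-K1 to 0.36 and Erap1 to -0.51.

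Beyond the classical chains, 23 other class I and class I-like heavy chains were listed, of which 16 were tested. At 7 days against control 13 of the 16 were higher and 3 were lower (Procr, Hfe and H2-T24), with a median log2 fold change of 1.28, beside 40.5% higher and 41.8% lower and a median of -0.032 over all genes tested. The call of H2-T24 (edgeR adjusted p = 0.0170) was lost without control replicate 1 or 7-day replicate 1, with adjusted p up to 0.0685. H2-T3, the thymus leukaemia antigen of mouse intestinal epithelium, a ligand of CD8alpha homodimers, had 69.2, 72.3 and 73.3 CPM at 7 days, against 9.23, 9.70 and 8.70 CPM in controls. H2-T3 thus rose 7.76-fold (edgeR adjusted p = 1.12e-13), with replicates close together. H2-Q2, a heavy chain of the Q region, had 141, 149 and 152 CPM at 7 days, against 23.1, 24.5 and 20.8 CPM in controls, a 6.46-fold rise (edgeR adjusted p = 2.27e-13).

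Azgp1, a soluble class I-like glycoprotein, had 227, 288 and 293 counts at 7 days, against 18, 18 and 7 counts in controls (21.4-fold, edgeR adjusted p = 1.94e-11). Fcgrt, the heavy chain of the neonatal Fc receptor, which also pairs with B2m, had 181, 226 and 185 counts at 7 days, against 0, 1 and 4 counts in controls (edgeR adjusted p = 4.07e-11). Fcgrt was close to silent in controls and at 2 days, where it had 0, 0 and 1 counts. It passed the count filter only because of its 7-day samples, so the filter itself favoured its higher call. H2-Q4 rose 2.17-fold and H2-T23 3.39-fold. Many genes of the Q and T regions share sequence, with 39.2% of the 50-base stretches of H2-Q4, 43.9% of those of H2-T22 and 29.8% of those of H2-T23 found in another gene, so their separate values are uncertain. H2-T3 shares 1.23% and H2-Q2 16.1%. At 2 days H2-T3 was called higher (log2 fold change 0.28, edgeR adjusted p = 0.0307), a call lost in 7 of 18 other settings, with adjusted p up to 0.103, 6 of them leaving out a library (any control, 2-day replicate 1 or 3, or 7-day replicate 2).

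**Figure D5:**
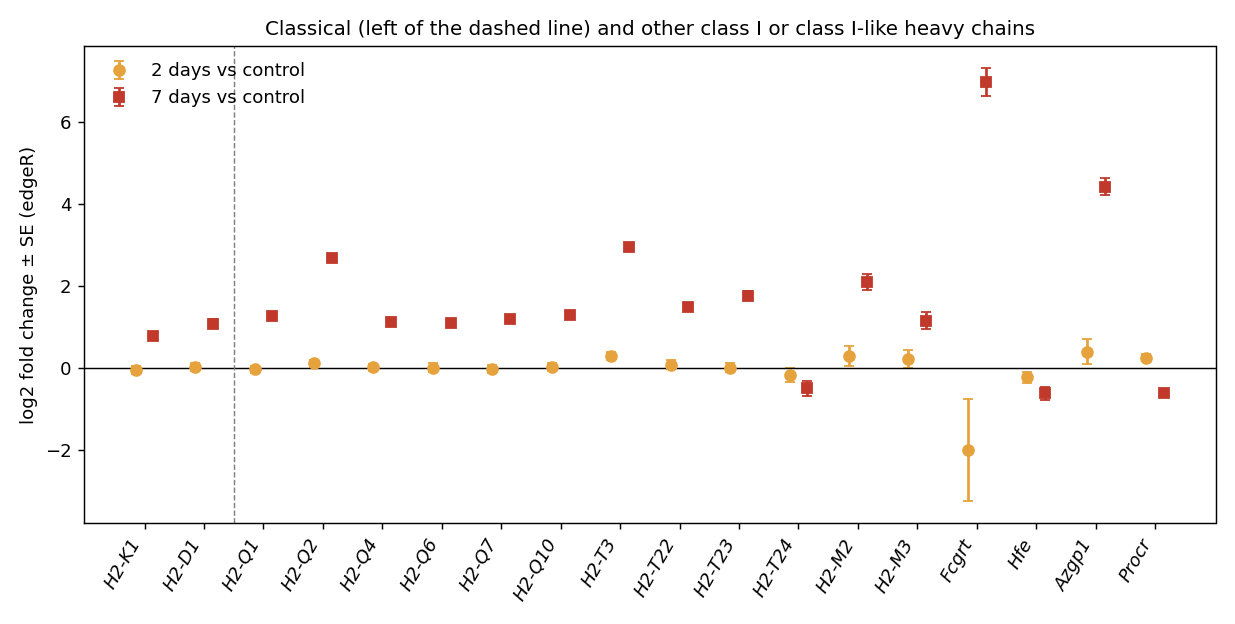
Log2 fold change against control at 2 days and 7 days, with the SE from edgeR, for H2-K1 and H2-D1 and for the 16 other class I or class I-like genes tested. At 7 days H2-T3, H2-Q2, Azgp1 and Fcgrt lie well above H2-K1 (0.76) and H2-D1 (1.08), and Procr, Hfe and H2-T24 lie below 0; the Fcgrt values rest on 5 control counts and 1 count at 2 days.

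Peptides for class I come from the proteasome, which exchanges its catalytic subunits for Psmb8, Psmb9 and Psmb10 to form the immunoproteasome. Of 6 listed genes of the immunoproteasome and its activator, 5 were higher at 7 days, 0 were lower and Pomp, the assembly factor, was not called. Over all genes tested 40.5% were higher and 41.8% lower. Psmb9, whose start lies beside that of Tap1, had 57, 47 and 32 counts at 7 days, against 12, 9 and 4 counts in controls (6.23-fold, edgeR adjusted p = 5.54e-06). Psmb8, which lies near Tap2 in the same stretch of the MHC, had 21, 24 and 20 counts at 7 days, against 2, 3 and 2 counts in controls (edgeR adjusted p = 1.31e-06). Neither was abundant, and both were clearly separated at 7 days. Psmb8 and Psmb9 passed the count filter only because of their 7-day samples, so the filter itself favoured their higher calls. Psmb10 averaged 57.2 ± 9.59 CPM at 7 days and 23.4 ± 2.07 CPM in controls (edgeR adjusted p = 9.41e-08).

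The proteasome activator subunits rose as well, Psme1 by 2.51-fold (edgeR adjusted p = 1.49e-08) and Psme2 by 1.78-fold (edgeR adjusted p = 6.31e-07). Of the 3 constitutive catalytic subunits that the immunoproteasome subunits replace, 0 were higher and 2 were lower, Psmb5 with a log2 fold change of -0.49 (edgeR adjusted p = 0.000256) and Psmb7 with -0.37 (edgeR adjusted p = 0.000434). Psmb6 was at -0.11 (edgeR adjusted p = 0.238), and over all genes 40.5% were higher and 41.8% lower. Psmb10 over Psmb7 was 0.557, 0.473 and 0.407 at 7 days, against 0.161, 0.155 and 0.138 in controls, without overlap (exact permutation p = 0.1). At 2 days 0 of the 6 immunoproteasome and activator genes were called by edgeR, beside 23.7% of all genes. Of the 6, 0 passed an unadjusted p of 0.05.

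The general chaperones and glycan enzymes that serve class I loading beside other proteins were mixed, with 3 of 8 higher and 2 lower at 7 days, beside 40.5% and 41.8% of all genes. The lower ones were Mogs, the glucosidase that starts glycan trimming (log2 fold change -1.66, edgeR adjusted p = 2.44e-11), and Canx, the lectin chaperone calnexin (-0.41, edgeR adjusted p = 0.000266). Hspa5, the BiP chaperone, was at 0.35 (edgeR adjusted p = 0.000554) and Tapbpl, a tapasin relative that edits peptides, at 0.45 (edgeR adjusted p = 0.00166). Uggt1 made up the third call. All 3 calls were lost under scaling by library size alone, where Hspa5 (-0.054) and Uggt1 (-0.038) changed sign and Tapbpl stood at 0.052. Of 6 tested cytosolic and endosomal peptidases 1 was higher and 3 were lower, the lower ones being Blmh (-1.01, edgeR adjusted p = 2.89e-09), Thop1 (-0.70, edgeR adjusted p = 6.95e-05) and Lap3 (-0.23, edgeR adjusted p = 0.00593). Npepps, a puromycin-sensitive aminopeptidase, was the higher one at 0.45 (edgeR adjusted p = 7.49e-05), and it lost its call under library size alone (0.045).

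The factors that sit with NLRC5 on class I promoters mostly fell. At 7 days 2 of the 8 were higher and 6 were lower, beside 40.5% and 41.8% of all genes. Nfya, a subunit of the CCAAT-binding factor NF-Y, averaged 19.9 ± 0.24 CPM at 7 days and 40.6 ± 2.34 CPM in controls (edgeR adjusted p = 9.81e-09). Nfyb had a log2 fold change of -0.82 (edgeR adjusted p = 8.06e-07) and Creb1, which binds the CRE, one of -0.92 (edgeR adjusted p = 8.30e-07). Rfxank, a subunit of the RFX complex, went the other way, with 14.1 ± 2.07 CPM at 7 days and 4.29 ± 0.72 CPM in controls (edgeR adjusted p = 1.76e-08), and Rfx5 was the other higher one. Rfxap, also of the RFX complex, was among the lower ones (log2 fold change -0.73, edgeR adjusted p = 1.42e-06).

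Of 18 genes for interferon receptors and their signal, 14 were higher and 2 lower at 7 days, beside 40.5% and 41.8% of all genes, with a median log2 fold change of 1.11. The call of Jak1, one of the 14, was lost under scaling by library size alone (0.082). Ifngr1, the ligand-binding chain of the interferon-gamma receptor, averaged 60.2 ± 0.71 CPM in controls, then 102 ± 5.54 CPM after 2 days, then 266 ± 10.5 CPM after 7 days (edgeR adjusted p = 9.05e-13 at 7 days against control). Ifngr2, its partner chain, rose 2.92-fold at 7 days (edgeR adjusted p = 3.20e-11). Irf1, an interferon-induced activator of class I genes, rose 2.93-fold (edgeR adjusted p = 1.45e-10) and Irf2, its relative, 3.28-fold (edgeR adjusted p = 7.07e-11).

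At 2 days 5 of these 18 genes were called higher and 1 (Irf8) lower, beside 13.1% and 10.6% of all genes. Ifngr1 had a log2 fold change of 0.76 at 2 days (adjusted p below 0.05 in each of the 18 other settings) and Irf1 one of 0.37 (edgeR adjusted p = 0.00534). The 2-day calls of Irf2, Irf9 and Il10rb were each lost when single libraries were left out, with adjusted p up to 0.113 for Irf2, 0.112 for Irf9 and 0.0592 for Il10rb. For each of them control replicates 1 and 2 and 2-day replicate 3 were such libraries, for Irf2 and Irf9 also 2-day replicate 2, and limma-voom too did not call Irf9. Whether the timing of these genes differs from that of the class I members was not tested.

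Of 8 NF-kB subunits and inhibitors, which act through kappaB sites, 3 were higher and 3 lower at 7 days, about the share of all genes (40.5% and 41.8%). The lower call of Rela (edgeR adjusted p = 0.0337) was lost in 6 of 18 other settings, 4 of them leaving out control replicate 1 or 2 or 7-day replicate 2 or 3, with adjusted p up to 0.152 over the 6. Relb, a subunit of the non-canonical branch, rose 2.88-fold (edgeR adjusted p = 2.42e-09) and the inhibitor Nfkbia 1.53-fold (edgeR adjusted p = 1.34e-05). Nfkbie had a log2 fold change of 0.70 (edgeR adjusted p = 0.000586), lost under library size alone (0.29), and Nfkbib one of -0.37 (edgeR adjusted p = 0.00376). Of 9 genes of Polycomb repressive complex 2, known to silence class I genes in human tumour lines, 8 were lower and Ezh1 was higher. Phf19, an accessory subunit, averaged 4.68 ± 0.69 CPM at 7 days and 28.8 ± 1.94 CPM in controls (edgeR adjusted p = 2.26e-11). The methyltransferase Ezh2 averaged 30.9 ± 0.54 CPM at 7 days and 80.3 ± 5.54 CPM in controls (edgeR adjusted p = 2.62e-10). Rbbp4 had a log2 fold change of -1.36 (edgeR adjusted p = 2.85e-10) and Rbbp7 one of -1.03 (edgeR adjusted p = 2.34e-09).

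The class II pathway stayed near silence in its defining genes. Of 13 listed genes 4 were tested and all 4 were higher at 7 days, beside 40.5% of all genes. Ctss and Cd74 passed the count filter only because of their 7-day samples, so the filter itself favoured their higher calls. The class II transactivator Ciita had 1 count at 7 days, against 3 counts in controls, each summed over 3 samples, and H2-Aa and H2-Ab1, the chains of the I-A molecule, had 3 or fewer counts in all 9 samples together. H2-Eb1, another class II chain, went down, with 1, 0 and 3 counts at 7 days, against 4, 11 and 4 counts in controls. Its CPM did not overlap between these groups, but it was below the count filter and was not tested. The tested genes were endosomal ones and the invariant chain. Ctss, cathepsin S, had 100, 76 and 64 counts at 7 days, against 2, 0 and 1 counts in controls (edgeR adjusted p = 4.12e-09). Ifi30, a thiol reductase, rose 2.54-fold (edgeR adjusted p = 8.97e-09). H2-DMa rose 4.20-fold (edgeR adjusted p = 4.81e-07), and Cd74 had 25, 21 and 21 counts at 7 days, against 3, 2 and 2 counts in controls (edgeR adjusted p = 4.58e-07).

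Ligands that T cells and natural killer cells read beside class I were mixed, with 4 of 7 tested genes higher at 7 days and 2 lower, beside 40.5% and 41.8% of all genes. One of the 4, Cd274, was called narrowly (log2 fold change 0.64, edgeR adjusted p = 0.0381), and the call was lost in 9 of 18 other settings, among them leaving out control replicate 1 or 2 or any 7-day replicate, with adjusted p up to 0.415 over the 9. Icam1, an adhesion ligand of leukocyte integrins, averaged 30.03 ± 2.36 CPM at 7 days and 59.3 ± 2.61 CPM in controls (edgeR adjusted p = 4.61e-08). Nectin2, a ligand of the DNAM-1 receptor, averaged 314 ± 45.8 CPM at 7 days and 146 ± 19.1 CPM in controls (edgeR adjusted p = 2.71e-07). H60c, a ligand of the NKG2D receptor, rose 4.13-fold on 25 counts over the 3 controls (edgeR adjusted p = 0.000103) and was already higher at 2 days (edgeR adjusted p = 0.000265). Other NKG2D ligands did not rise at 7 days. Raet1e was lower (log2 fold change -0.88, edgeR adjusted p = 0.0042) and Raet1d was not called (-0.38, edgeR adjusted p = 0.309). Pvr, another DNAM-1 ligand, had a log2 fold change of 0.47 (edgeR adjusted p = 0.000270), lost under library size alone (0.063).

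RNA of immune cells, which carry high class I levels, was scarce. The summed level of 14 leukocyte markers was 0.373 to 0.966 CPM in controls, then 0.552 to 1.13 CPM after 2 days, then 1.39 to 2.68 CPM after 7 days, with Ncr1 and Nkg7 among those at 0 in all samples. Ptprc, the pan-leukocyte CD45 gene, had 25 counts in all 9 samples together. Of the 14, the 2 tested were higher at 7 days, beside 40.5% of all genes. Csf1r had 26, 22 and 25 counts at 7 days, against 1, 0 and 1 counts in controls. It passed the count filter only because of its 7-day samples, so the filter itself favoured its higher call. Laptm5 had 28, 11 and 4 counts, against 8, 3 and 3 counts in controls. Fibroblast markers (8 genes) summed to 0.781 to 1.16 CPM in controls, then 0.645 to 0.704 CPM after 2 days, then 0.563 to 0.939 CPM after 7 days, with Lum at 0. The 2 tested ones moved in opposite directions at 7 days, Pdgfrb with 11, 12 and 16 counts, against 0, 1 and 0 counts in controls (edgeR adjusted p = 3.69e-06), and Col1a2 with a log2 fold change of -2.20 (edgeR adjusted p = 0.000257). Endothelial markers (6 genes) summed to 1.56 to 2.07 CPM in controls, then 1.26 to 1.62 CPM after 2 days, then 1.92 to 2.93 CPM after 7 days, with Emcn at 0.

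Genes whose pattern over the 9 samples was most like that of each member were looked for among 9610 genes with a mean of at least 5 CPM, by the root mean square difference of centred log2 CPM. For H2-D1 they were other heavy chains, H2-Q6 and H2-Q4, both at 0.0328, which share sequence with the class I family. H2-K1 came closest to Taldo1 (0.0505), a pentose phosphate enzyme, and Agpat2 (0.0521), an enzyme of lipid synthesis. B2m came closest to Plk3 (0.0755), a stress-responsive kinase, and Lipe (0.0848), hormone-sensitive lipase. For Tap1 the closest were Dyrk1b (0.187) and Acsf2 (0.212), and for Tap2 Dock6 (0.152) and Upp1 (0.158). These values were larger than those of the other members. Tapbp lay closest to Tax1bp3 (0.0565) and Inpp5a (0.0608), and Erap1 to Wars2 (0.0309) and Purb (0.0577).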

How the data were processed

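Poly(A) RNA of 9 samples of 1 mouse organoid line was analysed, 3 per group, grouped by the sample titles. The authors deposited the reads per gene as whole-number, unnormalized counts. Per the submitters' processing notes, STAR 2.7.0e, featureCounts and DESeq2 were used with mm10 and GRCm38, and no annotation release or strand setting was given in the sources used here. Per the labels' protocols, the library kit was NEBNext Ultra II RNA, a version without strand marking.

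Symbols and positions came from GENCODE M21, in which 21236 of the 21253 IDs were found. Counts were filtered with filterByExpr, scaled with TMM and tested with edgeR 4.0.16 (R 4.3.3, quasi-likelihood, all 9 samples in 1 fit, Benjamini-Hochberg over 12535 genes, threshold 0.05). The test was checked on simulated counts. CPM are TMM-scaled, and the closeness of patterns used a prior count of 2. Replicates differed by 4.24 to 38.3 times the counting variance, so none was a duplicate. Same-numbered samples did not all deviate together (r of -0.13 to 0.48), so numbers were used as names in the main fit. Between 7-day and control samples r was 0.332 for replicate 1, -0.005 for replicate 2 and 0.48 for replicate 3. The crossed pairs of replicates 1 and 3 had r of -0.437 and -0.376. Whether same-numbered samples of these groups share a source was not tested. Alternatives were DESeq2 1.42.0, limma-voom (limma 3.58.1), 3 other scalings, 2 other filters, the 2 groups alone, a replicate block and each library left out.

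The members and gene lists were chosen with earlier results of these data known. Named were all members, up to 4 genes per list with the smallest p at 7 days against control, the neighbours Psmb8 and Psmb9, genes overlapping a member, and the 2 genes most alike in pattern to each member. Members of a list named to complete a count, and the layout of promoter motifs, were chosen after their values were seen. Heavy-chain reads shared between near-identical genes are uncertain.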

Additional observations from a re-analysis of the deposited data

Results flagged for a closer look

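For each of the 7 tested genes the change at 7 days differed from the change at 2 days, both against the same controls, by edgeR's test of 7 days against 2 days. The difference in log2 fold change was 0.82 for H2-K1 (edgeR adjusted p = 1.15e-06), 1.06 for H2-D1 (1.57e-07), 2.10 for B2m (2.75e-10), 3.35 for Tap1 (2.99e-08), 1.96 for Tap2 (3.57e-07) and 1.12 for Tapbp (1.12e-07). For Erap1 it was -0.23 (edgeR adjusted p = 0.0466). With 79.1% of all genes passing the same test, such a difference was common in these data.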

How the results depend on the processing

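Of the counts of members called in each direction, 93 of the recomputed values stayed within 1.5 times, 14 were lower and 1 was higher. Scaling by library size alone called 1 member lower at 7 days against control (Erap1). At 7 days against 2 days the number called lower was 0 with DESeq2 size factors, with the DESeq2 Wald test and with a mean of at least 5 CPM, and 0 to 1 with single libraries left out. At 2 days against control the number called higher was 0 to 1 with single libraries left out. The 2-day log2 fold change of H2-D1 reversed to -0.051 without control replicate 3, ran from there to 0.072 (without control replicate 1) with single libraries left out, and was not called under any setting. A replicate block gave 6 members higher and 0 lower at 7 days against control, 1 higher at 2 days against control, and 6 higher and 1 lower at 7 days against 2 days, changing no member's call. Of the list counts, 1279 stayed within 1.5 times, 59 were higher and 66 lower. Tap1 and Tap2 fell below a mean of 5 CPM and have no value there. The causes were not tested. Depth limits Nlrc5, Psmb8, Psmb9 and the transporter genes in controls, where a gene had few counts per library.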
